A study of Mus musculus with 8 samples.

Results

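The mitochondrial ribosomal proteins were taken as all probe sets whose single platform gene symbol begins with Mrpl (large subunit) or Mrps (small subunit) followed by a digit. A probe set is the group of short array probes read together as 1 transcript value. The rule found 156 probe sets of 45037, 104 for the large and 52 for the small subunit, and they covered 76 genes, 47 of the large and 29 of the small subunit. Of these, 129 probe sets (87 large, 42 small) were bright enough to be tested, and each of the 76 genes kept at least 1 of them. The other 27 lay below the median of their array on at least 7 of the 8 arrays and were not tested. Mrps18a and Mrps30 are now placed in the large subunit and Mrps36 in the 2-oxoglutarate dehydrogenase complex of the citric acid cycle, but they were kept with their symbols.

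The mitochondrial ribosome translates the few messenger RNAs of mitochondrial DNA, which encode core subunits of the respiratory chain and of ATP synthase. Its ribosomal RNAs are transcribed inside the organelle, while all its proteins are encoded in the nucleus, made in the cytosol and imported. Some of the proteins have relatives in the bacterial ribosome and others are found only in mitochondria. The heart is rich in mitochondria, and inherited defects of several of these proteins cause cardiomyopathy in people.

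RNA from whole hearts of male mice aged 6 to 8 weeks was measured on 8 one-colour Affymetrix arrays. The mice were wild type for the metallothioneins, small metal-binding proteins (labelled MT+/+), or null for metallothionein I and II (labelled MT-/-). The mice were treated with doxorubicin (DOX), a chemotherapy anthracycline with known cardiac toxicity, at 15 mg/kg in 1 intraperitoneal dose, or with saline in the same volume, and hearts were collected on day 4. The 4 groups, MT+/+ saline, MT+/+ DOX, MT-/- saline and MT-/- DOX, held 2 arrays each, labelled as biological replicates 1 and 2. The labels do not give the mouse strain, or whether a replicate was 1 heart or a pool.

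Arrays of the same group correlated at 0.976 or more (Pearson, log2 scale). Mt1 and Mt2, the genes labelled as null, gave signal on all 8 arrays, also on those labelled MT-/-. In 1 of 2 Mt1 probe sets the signal was 3722 and 4034 on MT+/+ saline arrays and 6735 and 9285 on MT+/+ DOX arrays. That probe set gave 4667 and 5322 on arrays labelled MT-/- saline and 12550 and 12850 on those labelled MT-/- DOX, so the labelled null arrays were the higher ones under each treatment, while the other Mt1 probe set read 63.4 to 103 over the 8 arrays. The files do not say whether these probes lie in the altered sequence, so the genotype could not be checked, and MT-/- means the arrays labelled so throughout, also in each direction between genotypes. Markers of cardiomyocytes were strong, with summed deposited signals between 104472 and 117196, and 0 of 4 skeletal muscle markers were bright enough to be tested.

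After DOX, transcripts of the mitochondrial ribosome were lower in many members and higher in none that passed the test. With both genotypes averaged, 28 of the 129 tested probe sets fell (21.7%) and 0 rose, where 6.84% of all 24751 tested probe sets fell and 7.03% rose. A probe set is said to have fallen or risen where its limma p, Benjamini-Hochberg adjusted over all tested probe sets, was at most 0.05. In the large subunit 21 of 87 fell (24.1%), among them Mrpl34, Mrpl19, Mrpl13 and Mrpl42, and in the small subunit 7 of 42 (16.7%), among them Mrps22 and Mrps28. The median log2 change was -0.20 in each subunit and 0.00 over all tested probe sets. The changes of members ran from -0.89 to 0.20 with quartiles of -0.42 and -0.03, and 102 were below 0. An unadjusted limma p was under 0.05 in 51 members (39.5%), against 27.4% of all tested probe sets.

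The 4 DOX arrays lay wholly below the 4 saline arrays in 41 members and wholly above them in 2, against 8.83% and 9.61% of all tested probe sets. By gene, 21 of the 76 had at least 1 probe set that fell, and in 12 of them every tested probe set did. When the probe set with the highest mean stood for each gene, 19 genes fell (25%), against 7.81% of 13008 genes. With the replicate number as a block, 54 members fell (36 large, 18 small) and 0 rose, and 13.2% of all probe sets fell. The number of members that fell was also sensitive to single arrays. It was higher without MT-/- DOX replicate 1 and lower when any other single array was left out. The number of all probe sets that fell moved the same way, and each such fit leaves 1 array in a group.

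**Figure D1:**
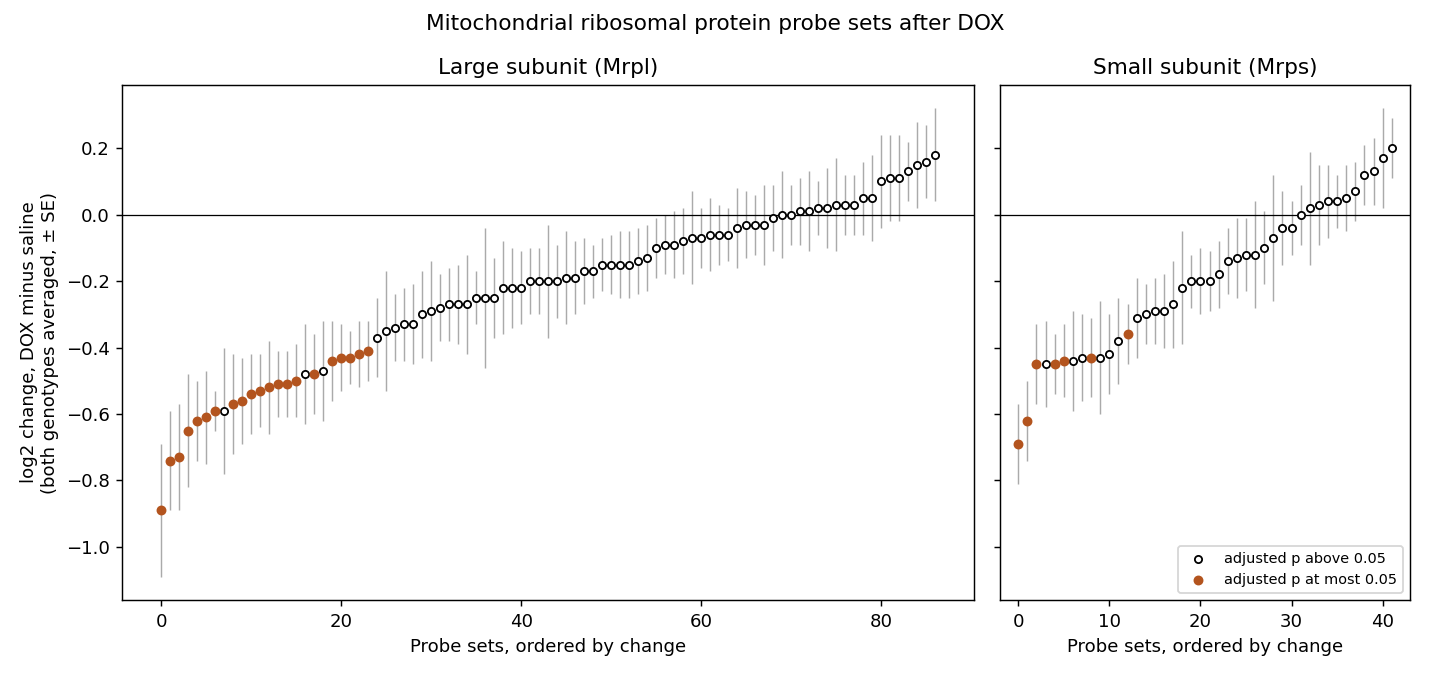
Log2 change after DOX (both genotypes averaged) of the 87 large subunit and 42 small subunit probe sets tested, ordered by size. Points are the fitted changes, bars are ± 1 standard error (2 arrays per group), and filled points passed an adjusted p of 0.05. All 28 filled points lie below 0, and the open points reach 0.20.

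Hearts are mixtures of cells, and on bulk arrays fewer cells of a type cannot be told apart from less RNA per cell. Markers of several other cell types moved with DOX in the same samples. Each marker was read by its probe set of highest mean signal, and 7.81% of 13008 genes read so fell. Of the fibroblast markers 5 of 7 fell, while Dcn (0.20) and Pdgfra (0.03) did not pass. The summed signal of the 7 was 15792 to 19914 on the saline arrays and 9879 to 11413 on the DOX arrays. Of the macrophage markers 6 of 7 fell, with sums of 7224 to 8929 on saline and 3911 to 5386 on DOX arrays. Endothelial markers fell in 3 of 6, smooth muscle and pericyte markers in 2 of 5 and red cell markers in 2 of 4, and the 1 tested adipocyte marker did not pass. Cardiomyocyte markers fell in 4 of 8 (Myh6, Actc1, Tnni3 and Ryr2), with a median log2 change of -0.12 over the 8. Tnnt2 (0.10), Pln (0.09), Myl2 (0.00) and Atp2a2 (-0.06) did not pass. The sums of the 8 were 113716 to 117196 on saline and 104472 to 110667 on DOX arrays. The signal of the 3′ over that of the 5′ actin control, a sign of RNA integrity, was 1.14 to 1.24 on saline arrays and 0.913 to 1.18 on DOX arrays. The part of the marker shifts and of the actin ratio in the lower ribosomal protein signals was not tested.

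The promoters of 4 members are printed here. Mrpl42, Mrps22 and Mrpl52 had a probe set that passed the test for DOX whichever single array was left out. Mrpl34 is shown for the largest change, although it passed in 4 of the 8 fits that left out an array, with an adjusted p of up to 0.0757. Each runs from 100 bases before to 50 after the annotated start, 5′ to 3′ in the direction of transcription, from the RefSeq table of build GRCm38.p6. Capitals mark matches on either strand to CCGGAAG, the core bound by GABP and other ETS factors, or to AAGATGG, the core of YY1. GCGCATG, the core of NRF1, was searched too and has no match in them. The windows are Mrpl34 at chr8:71464826-71464975 on the plus strand, Mrpl42 at chr10:95501900-95502049 on the minus strand, Mrpl52 at chr14:54426809-54426958 on the plus strand and Mrps22 at chr9:98601630-98601779 on the minus strand.
Mrpl34: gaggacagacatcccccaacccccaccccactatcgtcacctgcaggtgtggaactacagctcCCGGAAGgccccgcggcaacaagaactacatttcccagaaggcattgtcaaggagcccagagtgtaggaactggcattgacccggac
Mrpl42: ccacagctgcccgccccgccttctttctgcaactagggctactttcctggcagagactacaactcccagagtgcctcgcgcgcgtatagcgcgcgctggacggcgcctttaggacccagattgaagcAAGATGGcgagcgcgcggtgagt
Mrpl52: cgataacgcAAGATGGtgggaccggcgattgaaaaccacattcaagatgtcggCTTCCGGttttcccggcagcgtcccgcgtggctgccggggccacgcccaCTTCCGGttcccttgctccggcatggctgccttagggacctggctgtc
Mrps22: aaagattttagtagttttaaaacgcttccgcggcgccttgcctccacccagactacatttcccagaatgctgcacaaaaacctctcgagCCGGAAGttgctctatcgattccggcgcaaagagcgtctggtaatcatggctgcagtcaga

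GABP, NRF1 and YY1 are transcription factors known for promoters of nuclear genes of mitochondrial function. RefSeq windows of 250 bases before to 50 after the start were matched for 67 of the 76 genes. The GABP core stood in 25 of the 67 (37.3%), against 17.7% of 10440 genes with a tested probe set and 9.93% of all 27025 genes in the table. The YY1 core stood in 13 (19.4%), against 8.17% and 7.28%, and the NRF1 core in 8 (11.9%), against 7.27% and 4.41%. Of the 17 genes with a window and at least 1 probe set that fell, 7 held the GABP core, 7 the YY1 core and 0 the NRF1 core, and of the other 50 genes 18, 6 and 8 did. These are counts of letters in a window, with no test, and not binding sites. The levels of the factors are given with the other gene lists.

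Among large subunit proteins with bacterial relatives, 15 of 50 probe sets fell (30%), where 6.84% of all tested probe sets fell. Mrpl34 showed the largest change of any tested member. In probe set 1416349_at the deposited signal of MT+/+ hearts was 1640 and 1673 with saline and 1244 and 1013 after DOX, and that of MT-/- hearts 1862 and 1696 with saline and 1099 and 570 after DOX. All DOX arrays lay below all saline arrays, with MT-/- DOX replicate 2 far below the rest, and the log2 change was -0.89 ± 0.20 (limma SE, n = 2 arrays per group, adjusted p = 0.02). The other Mrpl34 probe set, 1438014_at, changed by -0.33 (adjusted p = 0.0874, and 0.0163 with the replicate block).

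Mrpl19 (probe set 1450405_at) read 190 and 173 on MT+/+ saline arrays, 142 and 103 after DOX, 224 and 186 on MT-/- saline arrays, and 121 and 75.6 after DOX. The treated arrays were lower throughout, by -0.74 ± 0.15 (adjusted p = 0.0139). Probe set 1421914_s_at of Mrpl19 fell by 0.73 on the log2 scale (adjusted p = 0.0172), while 1440324_at changed by -0.17 (adjusted p = 0.232).

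Mrpl13, whose bacterial relative is among the early-binding proteins of the large subunit, had signals in probe set 1424204_at of 1542 and 1423 in MT+/+ saline, 1144 and 1046 in MT+/+ DOX, 1534 and 1465 in MT-/- saline, and 1030 and 800 in MT-/- DOX. The DOX and saline arrays did not overlap and the change was -0.62 ± 0.12 (adjusted p = 0.0117). Its other tested probe set fell by 0.57 (adjusted p = 0.0407). Mrpl4, which lines the tunnel through which the new protein leaves, read 1624 and 1441 with saline and 1227 and 997 with DOX in MT+/+, and 1650 and 1674 with saline and 1241 and 881 with DOX in MT-/-. It was lower on every DOX array and changed by -0.61 ± 0.14 (adjusted p = 0.023).

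Mrpl3 sits close to the site where peptide bonds form, and its loss of function causes cardiomyopathy in people. It had 3 tested probe sets. Probe set 1422464_at read 1104 and 1347 on MT+/+ saline arrays, 1004 and 1087 after DOX, 1233 and 1128 on MT-/- saline arrays, and 736 and 686 after DOX. The MT-/- DOX arrays were the lowest of the 8, and with both genotypes averaged the change was -0.51 ± 0.10 (adjusted p = 0.0147). The difference between the genotypes' changes was -0.37 ± 0.21 and did not pass (adjusted p = 1). Probe set 1440636_at fell by 0.54 (adjusted p = 0.0181) and 1422463_a_at changed by -0.37 (adjusted p = 0.0808, and 0.00879 with the replicate block).

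Mrpl28 was lower in all 3 of its tested probe sets, with log2 changes of -0.53 (adjusted p = 0.0127), -0.51 and -0.50. Mrpl35 fell in 2 of its 3, by 0.65 (1440989_at, adjusted p = 0.0343) and 0.41 (1419362_at, adjusted p = 0.0211). Its probe set 1419363_a_at changed by -0.27 (adjusted p = 0.179, and 0.0186 with the replicate block). Mrpl21 (-0.43) and Mrpl36 (-0.42) also fell and are named after their values were seen, while another tested Mrpl21 probe set changed by -0.06 (adjusted p = 0.793). Mrpl12, the stalk protein that recruits translation factors and also binds the mitochondrial RNA polymerase, changed by -0.48 ± 0.15. Its MT+/+ arrays read 1938 and 2040 with saline and 1760 and 1592 after DOX, its MT-/- arrays read 2217 and 2201 with saline and 1840 and 1164 after DOX, and the treatments did not overlap, but it missed the threshold (adjusted p = 0.0627, and 0.0105 with the replicate block).

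Of the large subunit proteins found only in mitochondria, 6 of 37 probe sets fell (16.2%), where 6.84% of all tested probe sets fell. Mrpl42 had the smallest p of all members. In probe set 1418439_at the MT+/+ hearts read 7357 and 7515 with saline and 4869 and 5334 after DOX, and the MT-/- hearts 6325 and 6295 with saline and 4243 and 3907 after DOX. Replicates lay close together and the groups far apart, and the log2 change was -0.59 ± 0.06 (adjusted p = 0.000601). Its other probe set, 1437922_at, changed by -0.25 (adjusted p = 0.497).

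Mrpl52 fell after DOX in probe set 1460701_a_at, which read 4746 and 4269 on MT+/+ saline arrays, 2829 and 3015 after DOX, 3141 and 2947 on MT-/- saline arrays, and 2673 and 2684 after DOX. The MT+/+ saline arrays stood above the 6 others, and the MT-/- saline arrays overlapped the MT+/+ DOX arrays. The averaged change was -0.43 ± 0.08 (adjusted p = 0.00956). The other tested Mrpl52 probe sets changed by -0.07 (1415761_at, adjusted p = 0.808) and -0.04 (1415762_x_at, adjusted p = 0.885).

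Mrpl41 fell in both of its tested probe sets (-0.56, adjusted p = 0.0222, and -0.52, adjusted p = 0.0457), although in the first the normalized values of the 2 sides overlapped. Mrpl37 fell by 0.48 on the log2 scale (adjusted p = 0.0291) and Mrpl49 by 0.44. Mrpl44, a member linked to cardiomyopathy, changed by -0.15 to -0.22 in 4 probe sets with adjusted p between 0.237 and 0.38. Mrpl45, which holds the ribosome at the inner membrane, changed by -0.59 ± 0.19 (adjusted p = 0.0808, and 0.00125 with the block).

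**Figure D2:**
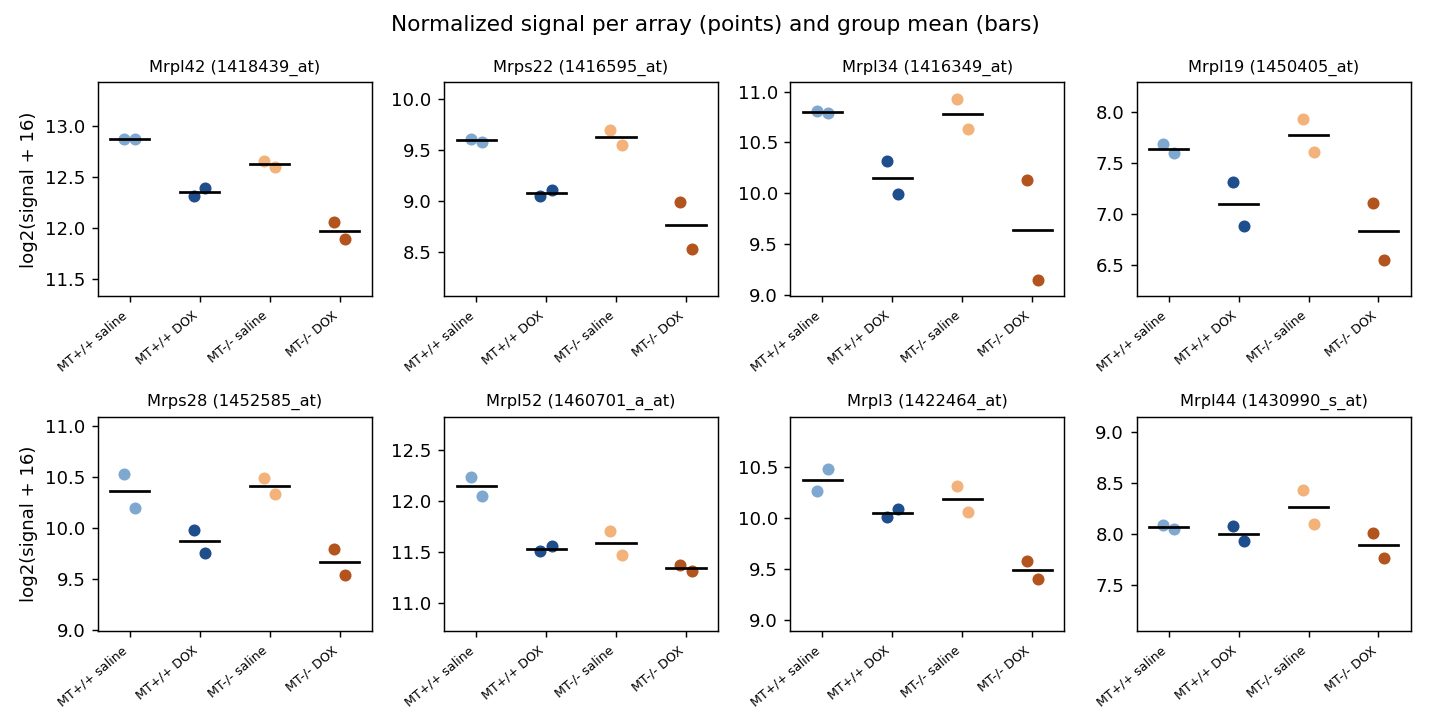
Normalized signal, as log2(signal + 16), of 8 probe sets (for each gene that of smallest p) on each array (points, 2 per group) with the group mean (bars). Panels span the same range in log2 units but start at different levels. In Mrpl42 and Mrps22 the DOX arrays lie below the saline arrays in both genotypes, while Mrpl52 is also lower in the MT-/- saline than in the MT+/+ saline arrays, and the groups of Mrpl44 overlap.

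In the small subunit, 5 of 26 probe sets of proteins with bacterial relatives fell (19.2%), where 6.84% of all tested probe sets fell. Of the mitochondrial ones 1 of 13 fell (7.69%), near that share, and, of Mrps18a, Mrps30 and Mrps36, only Mrps36 fell. Mrps22, found only in mitochondrial ribosomes and linked to cardiomyopathy, read 713 and 718 on MT+/+ saline arrays, 504 and 544 after DOX, 817 and 785 on MT-/- saline arrays, and 482 and 366 after DOX. Each DOX array was below each saline array and the change was -0.69 ± 0.12 (adjusted p = 0.00697). Mrps28 had signals of 1341 and 1095 in MT+/+ saline, 988 and 855 in MT+/+ DOX, 1392 and 1385 in MT-/- saline, and 858 and 764 in MT-/- DOX. The DOX arrays were again all below the saline arrays, with a change of -0.62 ± 0.12 (adjusted p = 0.0107).

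Mrps12, part of the decoding centre that checks the codon against the transfer RNA, read 583 and 616 with saline and 509 and 509 with DOX in MT+/+, and 529 and 782 with saline and 438 and 384 with DOX in MT-/-. The DOX arrays were all lower. It fell by 0.45 ± 0.12 on the log2 scale (adjusted p = 0.0465). Mrps14, another member linked to cardiomyopathy, changed by -0.29 ± 0.10 and missed the threshold (adjusted p = 0.0857, and 0.0323 with the block). Mrps16 (-0.44), Mrps17 (-0.36), Mrps9 (-0.43) and Mrps36 (-0.45) fell too, and are named after their values were seen. Among the tested members the highest change was that of Mrps30, at 0.20. Its 4 DOX arrays (587 to 675) all lay above its 4 saline arrays (502 to 571), but the adjusted p was 0.209.

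Several members with more than 1 probe set gave unequal answers. Of the 36 genes with at least 2 tested probe sets, 3 fell in all of them (Mrpl13, Mrpl28 and Mrpl41), 9 fell in some, and 10 held changes of both signs. Mrpl15 was measured by 4 tested probe sets with changes from -0.03 to 0.15, and none passed. Probe sets of a gene share its transcripts and are not independent samples.

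The shift was also seen array by array. The median deviation of the 129 members from their own mean over the 8 arrays was 0.13 and 0.10 for MT+/+ saline, -0.01 and -0.07 for MT+/+ DOX, 0.15 and 0.04 for MT-/- saline, and -0.08 and -0.22 for MT-/- DOX. The 4 saline arrays were thus above the 4 DOX arrays, and MT-/- DOX replicate 2 was the lowest. That array held the lowest value of 64 of the 129 members (49.6%), where it held the lowest value of 19.5% of all tested probe sets. Without it the median change was -0.16 in the large and -0.17 in the small subunit.

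**Figure D3:**
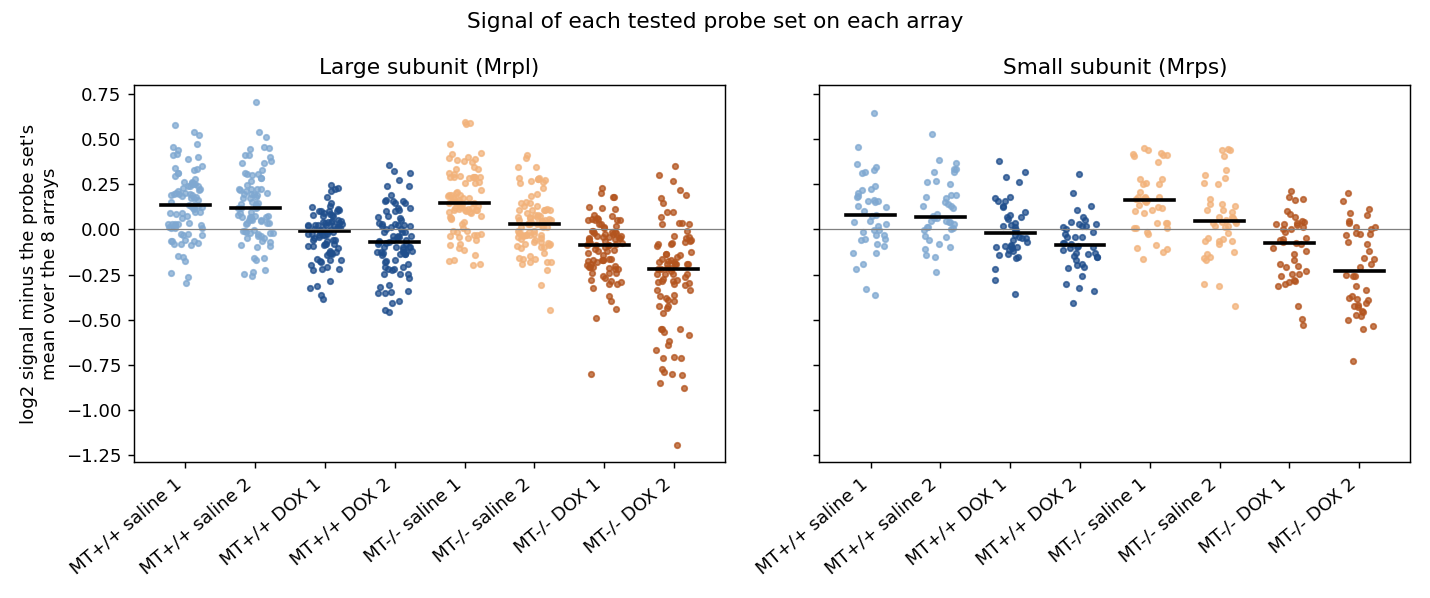
Deviation of each tested probe set from its own mean over the 8 arrays, in log2 units, with each array's median as a bar, for the large (87) and the small subunit (42). The medians of the saline arrays lie between 0.03 and 0.16 and those of the DOX arrays between -0.01 and -0.23, with MT-/- DOX replicate 2 lowest in both.

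In MT+/+ hearts alone, 2 of the 129 members fell after DOX (1.55%), both of the large subunit, and 0 rose. Of all probe sets 1.26% fell and 1.22% rose, so the count of members that fell was near that share. The 2 members were Mrpl52 (-0.61 ± 0.11, adjusted p = 0.0319) and Mrpl42 (-0.52 ± 0.08, adjusted p = 0.0184), whose array values are given above. The median over the 129 members was -0.16, and 94 changes were below 0. With the replicate block 15 fell, 13 of the large and 2 of the small subunit, and 4.85% of all probe sets fell. With any of the 4 MT+/+ arrays left out fewer members fell, and so did fewer of all probe sets. The count of members was 0 with a variance model without the mean trend, where 290 of all 24751 probe sets fell. With arrays centred on their median in place of quantile normalization, 317 of all probe sets were higher and 216 lower, where quantile normalization gave 301 and 312.

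In MT-/- hearts, 11 of the 129 members fell (8.53%) and 0 rose, where 3.38% of all probe sets fell and 2.83% rose. They were 5 probe sets of the large and 6 of the small subunit. Mrpl19 changed most among those that passed, by -1.0 ± 0.22 (adjusted p = 0.0355), in probe set 1421914_s_at, which read 394 and 336 with saline and 211 and 133 with DOX. Mrps22 fell by 0.87 on the log2 scale (adjusted p = 0.021), Mrps28 by 0.74 (adjusted p = 0.0365), Mrps25 by 0.73 (adjusted p = 0.0475) and Mrpl13 by 0.71 (adjusted p = 0.0477). Mrpl34 changed by -1.14 and just missed the threshold (adjusted p = 0.0507, and 0.00418 with the replicate block). The median over the members was -0.26.

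With the replicate block 42 members fell in MT-/- hearts (26 large, 16 small), and 8.86% of all probe sets did. The number of members that fell was sensitive to single arrays. It was lower without MT-/- saline replicate 1, MT-/- saline replicate 2 or MT-/- DOX replicate 2, and higher without MT-/- DOX replicate 1. The number of all probe sets that fell moved the same way, and each such fit leaves 1 array in a group. Both numbers were also lower without any single MT+/+ array, although those arrays enter only through the shared spread. The count of members was 3 when only the MT-/- arrays were fitted, where 518 of all 24751 probe sets fell.

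The DOX effects in the 2 genotypes rest on different arrays. Of the 129 members, 85 had a change below 0 in both and 16 above 0 in both. The change was more negative in MT-/- for 98 members (76.0%), where it was so for 50.8% of all tested probe sets. It was also more negative in MT-/- for 73 of 89 probe sets of cytosolic ribosomal proteins (82%), so this was not particular to the members. The median member deviation was -0.22 on MT-/- DOX replicate 2, -0.08 on MT-/- DOX replicate 1, and -0.01 and -0.07 on the MT+/+ DOX arrays. Across the members the 2 changes had a Pearson r of 0.758 and a Spearman rho of 0.754, given as a description, since members share arrays and normalization and are not replicates. Over all tested probe sets r was 0.794 and rho 0.656.

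**Figure D4:**
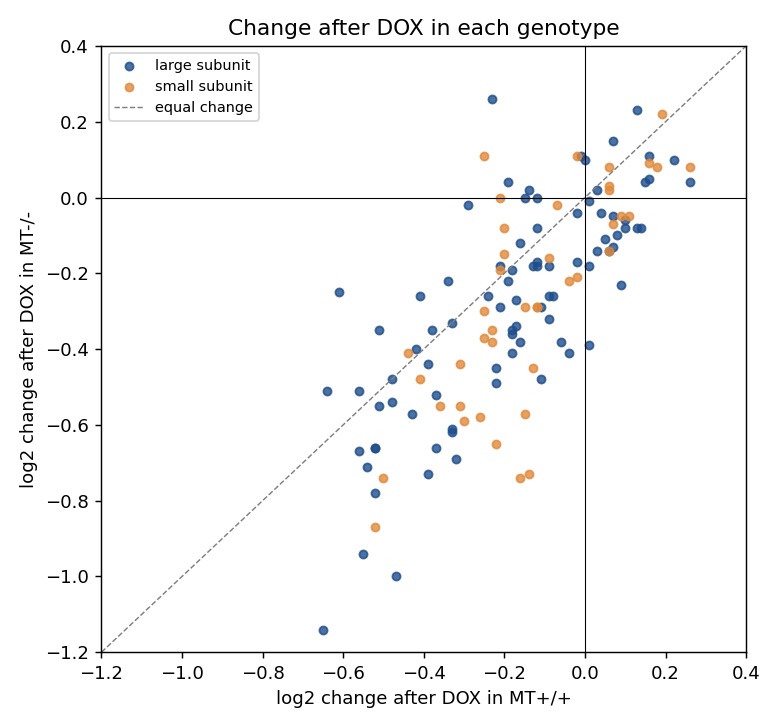
Log2 change after DOX in MT+/+ (horizontal) against MT-/- (vertical) for the 129 tested probe sets, with subunits in 2 colours and the line of equal change dashed. Of the points, 85 lie in the lower left corner, below 0 on both axes, and 98 below the dashed line, and Mrpl33 stands apart at -0.23 and 0.26.

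No member passed the test of the difference itself. The interaction was taken as the log2 change with DOX of MT-/- hearts less that of MT+/+ hearts, and 0 of 129 members passed, as did 0 of all 24751 probe sets (0%), and 4 members had an unadjusted limma p under 0.05 (3.1%, against 2.32% of all). The median interaction of the members was -0.13. The smallest p were those of Mrpl33 (0.50 ± 0.16, adjusted p = 1), Mrps25 (-0.59 ± 0.25, adjusted p = 1) and Mrps17 (-0.42 ± 0.18, adjusted p = 1). In the Mrps25 probe set MT-/- arrays read 120 and 140 with saline and 73.7 and 66.4 with DOX, while in MT+/+ they read 88.1 and 125 with saline and 98.2 and 87.6 with DOX. The DOX arrays of MT-/- were the lowest of the 8, but the MT+/+ values of both treatments overlapped.

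Between the genotypes no member passed in any of the 3 comparisons. Averaged over treatments 0 members passed (0.905% of all probe sets did, 109 higher and 115 lower in MT-/-, or 141 and 81 with median centring), and 13 had an unadjusted p under 0.05 (10.1%, against 13% of all probe sets). Mrpl42 came nearest at -0.31 ± 0.06 (adjusted p = 0.0556), followed by Mrpl52 (-0.37, adjusted p = 0.0902) and Mrpl3 (-0.37, adjusted p = 0.188). With the replicate block 5 were lower in MT-/-, where 2.38% of all probe sets were: Mrpl42 (adjusted p = 0.0127), Mrpl52 (0.014), Mrps31 (0.0383), Mrpl41 (0.0409) and Mrpl1 (0.0469). Without MT-/- DOX replicate 1, Mrpl42 passed in the fit without a block (adjusted p = 0.0354).

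Under saline 0 members passed (0.186% of all probe sets did), 5 had an unadjusted p under 0.05 (3.88%, against 8.62% of all) and the median was -0.02. Mrpl52 was -0.55 ± 0.11 (adjusted p = 0.183, and 0.0256 with the block, where 0.388% of all probe sets were lower), with arrays of 3141 and 2947 in MT-/- against 4746 and 4269 in MT+/+. Mrpl42 was -0.24 (adjusted p = 0.485), and Mrps17 was 0.36 (adjusted p = 0.495), with arrays of 1376 and 1701 in MT-/- against 1000 and 1156 in MT+/+.

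Under DOX 0 members passed (0.283% of all probe sets did), 10 had an unadjusted p under 0.05 (7.75%, against 7.39% of all) and the median was -0.12. Mrpl42 was -0.38 ± 0.08 in MT-/- against MT+/+ (adjusted p = 0.172, and 0.0386 with the block, where 0.715% were lower). Mrpl3 was -0.56 (adjusted p = 0.301) in the probe set that read 736 and 686 against 1004 and 1087. Mrpl1, a protein near the exit site of transfer RNA, was -0.43 (adjusted p = 0.474), with 385 and 414 against 492 and 590.

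Other genes of mitochondrial translation were read from lists, with the probe set of highest mean signal for each gene, for DOX averaged over genotypes. Read so, 7.81% of 13008 genes fell, the share to set beside each list here and below. The lists are short, and the counts that fell among the assembly genes and the regulators were near that share. Of 4 measured ribosomal proteins under other symbols, 1 fell: Ptcd3 (-0.40 ± 0.08, adjusted p = 0.0162), while Chchd1 was -0.37 (adjusted p = 0.0607), Gadd45gip1 -0.20 and Dap3 -0.06. Gadd45gip1, a large subunit protein outside the symbol rule, was the 1 gene of this list that differed between genotypes averaged over treatments, at -1.01 ± 0.13 in MT-/- (adjusted p = 0.00935). Its MT+/+ arrays read 545 and 517 with saline and 555 and 454 with DOX, and its MT-/- arrays 303 and 265 with saline and 260 and 211 with DOX, all below those of MT+/+. Of 13 translation factors, 3 fell and 0 rose, with a median of -0.13. Tufm, the elongation factor that brings transfer RNA to the ribosome, read 1558 and 1658 with saline and 1129 and 1198 with DOX in MT+/+, and 1574 and 1684 with saline and 1042 and 1045 with DOX in MT-/-. The treated arrays were lower in both genotypes, by -0.60 ± 0.08 (adjusted p = 0.00232), and the other tested Tufm probe set changed by -0.49. The initiation factor Mtif2 fell by 0.60 (adjusted p = 0.0281) and Slirp, which stabilises mitochondrial messenger RNA, by 0.39 (adjusted p = 0.0256), while the recycling factor Mrrf was -0.31 (adjusted p = 0.107).

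Among 19 measured genes that charge mitochondrial transfer RNA, 3 fell and 1 rose, with a median of -0.13. Qrsl1 (-0.66 ± 0.11, adjusted p = 0.0055), part of the enzyme that makes glutaminyl transfer RNA, fell, as did the cysteine and tyrosine ligases Cars2 (-0.46) and Yars2 (-0.50). The other tested probe set changed by -0.45 for Qrsl1, -0.34 for Cars2 and -0.21 for Yars2. Gatb, another part of the same enzyme as Qrsl1, rose by 0.39 (adjusted p = 0.0297) in the probe set with its highest mean signal, while its other one changed by -0.31. Of 22 genes of ribosome assembly and ribosomal RNA modification, 2 fell and 1 rose, with a median of -0.05. Mrm1 (-0.49, adjusted p = 0.0175) and Nsun4 (-0.37, adjusted p = 0.0304) fell, while the other tested Nsun4 probe sets changed by -0.5 and -0.09. Mpv17l2 rose by 0.37 (adjusted p = 0.0291), and Mrm2 was -0.28 (adjusted p = 0.064).

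Of 12 genes that copy and transcribe mitochondrial DNA, 2 fell and 0 rose, with a median of -0.02. The elongation factor Tefm (-0.37, adjusted p = 0.037) and Mterf2 (-0.40, adjusted p = 0.044) fell. Polg2 was 0.39 (adjusted p = 0.0732) and Tfam -0.29 (adjusted p = 0.114), with the other tested Tfam probe set at -0.13. Of 10 transcriptional regulators, 1 fell and 1 rose, with a median of -0.03. Gabpb1, a subunit of GABP, fell by 0.38 ± 0.08 (adjusted p = 0.0147), while its other tested probe set changed by -0.16. Myc rose by 0.43 ± 0.07 (adjusted p = 0.0072). It read 81.8, 77.1, 84.2 and 89.5 on saline and 107, 113, 121 and 124 on DOX arrays. Gabpa was -0.08, Nrf1 0.02 and Yy1 0.19, and the adjusted p of these 3 were 0.266 or more. Their other tested probe sets changed by -0.01 (Gabpa), 0 to 0.12 (Nrf1) and -0.17 to -0.1 (Yy1).

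Cytosolic ribosomal proteins, which build the ribosomes outside mitochondria and were added after the first results, were read beside the mitochondrial ones. Of 89 tested Rpl and Rps probe sets, 11 rose and 2 fell, where 7.03% of all tested probe sets rose and 6.84% fell. Their median log2 change was 0.11. For the mitochondrial ribosome 0 of 129 rose and 28 fell, with a median of -0.20. The difference between the 2 sets was not tested.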

How the data were processed

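Values are the deposited linear signal intensity of each probe set on each of 8 arrays, made by the authors with GCOS 1.4 per the submitters' processing notes. The signal algorithm and the scaling target are not stated in the labels or file, and the number of arrays limits the precision. Of 45101 probe sets, 64 controls were left out. Intensities were quantile-normalized, taken as log2(intensity + 16), and a probe set was kept if 2 or more of the 8 arrays reached their own median, which left 24751. On this scale changes of dim probe sets are understated. Names came from the platform annotation, and probe sets with several symbols were not named. All 156 member symbols are current in RefSeq.

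The fit used limma 3.58.1 in R 4.3.3, with 4 group means over all arrays and eBayes with a mean trend (4 residual and 4.66 prior degrees of freedom). P-values are two-sided and adjusted by Benjamini-Hochberg over all tested probe sets in each of 7 comparisons, with a threshold of 0.05. With 2 arrays a side the smallest exact p is 0.333. The fit was also run on simulated data with planted changes and independent noise on each array. Arrays that vary together were not simulated.

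The labels do not say whether equal replicate numbers share a day or litter. Deviations of same-numbered arrays from their group means correlated at 0.36 to 0.542 in all 6 pairs of groups. The main fit, and every count not said to use the block, ignores the replicate number. A fit with the number as a block is given beside it, for the counts of members and for several named probe sets.

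The text names the called genes with the largest changes (12 for DOX averaged, 5 elsewhere), or, in comparisons with no call, the 3 of smallest p. It always names Mrpl3, Mrpl44, Mrps14, Mrps22, Mrpl12 and Mrps12, and up to 4 genes with the smallest p of each other list. The members, the lists and the tests were chosen with earlier results of these data known.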

Additional observations from a re-analysis of the deposited data

Results flagged for a closer look

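Mrpl33, a large subunit protein with a bacterial relative, had changes of opposite sign in the 2 genotypes. It was picked from the members named above, where it had the smallest p of the interaction. Its probe set 1448190_at read 2435 and 2159 on MT+/+ saline arrays and 1947 and 2130 after DOX (log2 change -0.23), and 1955 and 2258 on MT-/- saline arrays and 2676 and 2532 after DOX (log2 change 0.26). Each DOX array lay below the saline arrays in MT+/+ and above them in MT-/-. Such separation of 2 against 2 arrays was common. In MT+/+ it was found in 11056 of all 24751 tested probe sets, and in MT-/- in 12195, in either direction. The difference of the 2 changes was 0.50 and did not pass the limma test of the interaction (adjusted p = 1). The other Mrpl33 probe set, 1425843_at, changed by -0.16 and -0.12.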

How the results depend on the processing

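For the probe sets that the naming rule chose, 917 values were computed under the alternatives: 741 stayed on their side of the threshold, 166 lost a call, 10 gained one and 0 reversed. With the replicate block 54 members were called for DOX averaged, 15 in the MT+/+ and 42 in the MT-/- hearts, 5 for genotype averaged, 1 for genotype under saline and 1 for genotype under DOX. All 28 members called for DOX averaged kept the call there, and the block ended no call of a named member in the other comparisons. Without the mean trend 0 were called for DOX in MT+/+, and with only the compared groups 3 for DOX in MT-/-. Leaving out 1 array at a time gave 7 to 36 for DOX averaged, 0 to 2 in MT+/+ alone, 1 to 20 in MT-/- alone and 0 to 1 for genotype averaged. Where that left 1 array in a group, it was assumed to vary like the other groups.

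For DOX averaged, 26 members were called with the deposited scaling, 21 with median centring, 28 with a pseudocount of 1 or of 64, 26 of 112 with the stricter filter and 30 without the mean trend. The probe sets that fell among all tested were 1660, 1418, 1689, 1682, 1447 and 1670 in these settings, in that order. The main fit had 1692. With no filter 25 of 156 were called, of which a Mrpl15 probe set (1430798_x_at), not tested in the filtered table, was higher. In that fit 1596 of all probe sets fell and 1597 rose. Leaving out probe sets whose IDs end in _x_at or _s_at, which can match several transcripts, left 23 of 109. Dim signal limited 27 of the 156 members, which were not tested.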

Other observations

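Letters beyond the searched cores were noticed in the printed promoters. The string ACTACANNT, on either strand, stood in the 300-base windows of Mrpl34, Mrpl42 and Mrps22, and in 7 of the 67 member genes with a window (10.4%), against 5.72% of genes with a tested probe set. This string was chosen after those sequences were seen, it is a count with no test, and its presence in the first 3 genes is how it was found.

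The 3 tested Mrpl52 probe sets differed in more than size. Probe set 1460701_a_at read 4746 and 4269 on MT+/+ saline and 3141 and 2947 on MT-/- saline arrays, while 1415761_at read 726 and 637 on MT+/+ saline and 1032 and 865 on MT-/- saline arrays, higher rather than lower in MT-/-. Which transcripts each of them measures was not analysed here.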
